A study of Homo sapiens with 4 samples.

Results

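The 10 genes described here encode 3 secreted class 3 semaphorins (SEMA3A, SEMA3C and SEMA3F), the 2 neuropilins (NRP1 and NRP2) and 5 plexins (PLXNA1, PLXNA2, PLXNB1, PLXNB2 and PLXND1). They were taken by gene name from the 58735 genes of the count tables, and each name matched 1 gene. The RNA came from HaCaT cells (spelled HaCAT in the sample labels), an immortalised human keratinocyte line, and poly-A RNA was sequenced from 4 libraries. The 2 siControl libraries were from cells of genotype WT that received a normal control siRNA, and the 2 siALKBH5 libraries were from the same line given an siRNA that knocks down ALKBH5, an enzyme that removes the methyl group of N6-methyladenosine (m6A) from RNA. Both groups were thus transfected, and a knockdown lowers the target without deleting it. The comparison of siALKBH5 with siControl asks which transcripts of the line differ after the knockdown. The sources used here do not say whether the replicates were separate cultures, so the p-values measure only the spread between these libraries. One line was studied, and the time between transfection and lysis was not given in the sources used here.

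Class 3 semaphorins are secreted guidance cues that bind a neuropilin, which has a short cytoplasmic tail and passes the signal on through an A-type plexin. Plexins carry a cytoplasmic domain through which they change integrin adhesion and the actin cytoskeleton. The B-type plexins bind mainly class 4 semaphorins without a neuropilin, and PLXND1 can bind SEMA3E directly. In skin, semaphorins of keratinocytes are known for acting on sensory nerve fibres, blood vessels and the motility of the keratinocytes themselves.

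The libraries held between 16017502 and 18837807 counts, and 15075 genes passed the filter on low counts and were tested with edgeR's quasi-likelihood test, with p-values adjusted over all of them by the Benjamini-Hochberg method. ALKBH5 had 1512 and 1576 counts in siControl against 956 and 816 in siALKBH5. Its log2 fold change was -0.85 (SE 0.053, adjusted p = 6.4e-15), which goes with the labels. All 10 keratinocyte markers were tested, and their summed level was 18984 to 19367 CPM (counts scaled to library size) in siControl and 25007 to 25103 in siALKBH5. Of these markers 5 were higher and 4 lower, beside 19.3% higher and 17.3% lower over all tested genes. KRT5, the basal keratin, rose from a mean of 7023 to 11232 CPM while its partner KRT14 rose from 5613 to 6544 CPM. The 4 lower were KRT17, TP63, ITGA6 and ITGB4, of which only KRT17 kept its call with DESeq2. The higher sum thus does not stand for every marker. Mitochondrial transcripts took 10.2% of the counts in each siControl library, against 9.63% and 9.64% after knockdown. What part either shift had in the values below was not tested.

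The siRNAs that the study lists against ALKBH5 are shown because their guide strands could pair with other transcripts. Each antisense strand is written 5′ to 3′ without its overhang, and capitals mark the seed, bases 2 to 8. The labels do not say which of them was in these cells.
ALKBH5-si1: uCGCCGAAgaaguacuugu
ALKBH5-si2: uAGUCGUUgaugacggcgc
A transcript that pairs with these seeds holds TTCGGCG or AACGACT. In the transcript with the longest coding sequence of each gene (GENCODE release 29), neither 7-letter match was in the 3′UTR of any of the 10 genes. Among the 12327 tested coding genes with a 3′UTR, 47 (0.381%) held the first and 157 (1.27%) the second. A match, or none, is a description of these letters and does not say whether an siRNA acts.

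After ALKBH5 knockdown, 5 of the 10 genes were higher (SEMA3F, NRP1, NRP2, PLXNA2 and PLXNB2), 1 was lower (PLXNB1), and SEMA3A, SEMA3C, PLXNA1 and PLXND1 did not pass the threshold of an adjusted p under 0.05. Over all tested genes, 19.3% were higher and 17.3% were lower by the same rule. Both neuropilins were among the higher genes, with the largest changes that passed, while the 3 ligands and the 5 plexins each held members that did and did not pass. None of the 10 both passed and reached 2-fold, as 244 higher and 196 lower of the 15075 tested genes did. At so small a share, none among 10 says little about these genes. The fitted value of PLXND1 was past 2-fold without passing. The siControl and siALKBH5 libraries did not overlap in 7 of the 10 genes, and in 66.3% of all tested genes. The median log2 fold change was 0.12 over the 10 genes and -0.0081 over all tested genes. Both the 7 and the median of the 10 include PLXND1, which passed the low-count filter only through the siALKBH5 libraries. In bulk RNA, fewer cells that express a gene and less RNA per cell cannot be told apart. With 2 libraries against 2, an exact permutation test cannot go below p = 0.333, so each call rests on the spread that edgeR estimated across all genes.

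**Figure D1:**
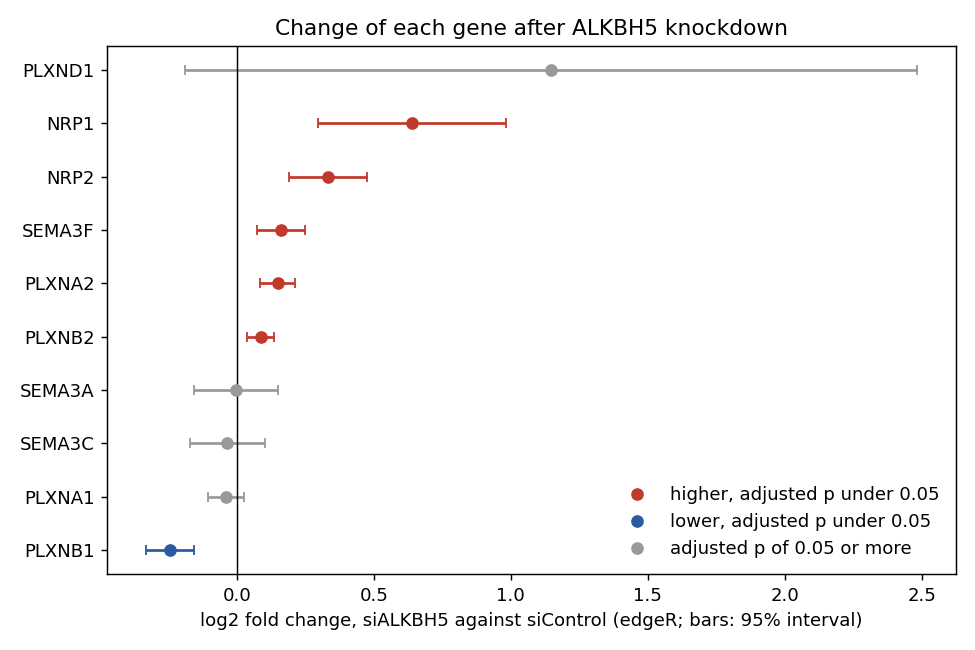
The log2 fold change of siALKBH5 against siControl (horizontal axis) of each of the 10 genes, as points with 95% intervals from edgeR's quasi-likelihood fit, coloured by whether the adjusted p was under 0.05. NRP1 (0.64) and NRP2 (0.33) lay farthest to the right of the genes that passed, PLXNB1 (-0.24) was the 1 gene lower, and the interval of PLXND1 ran from -0.19 to 2.48.

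SEMA3F (ENSG00000001617, GRCh38 chr3:50155045-50189075, plus strand), a ligand that binds mainly NRP2, had 1882 and 2047 counts in siControl against 2521 and 2012 in siALKBH5. After scaling to library size these were 117 and 114 CPM in siControl and 135 and 122 CPM in siALKBH5. Both siALKBH5 libraries lay above both siControl libraries, with siALKBH5 1 the highest. SEMA3F rose by 0.16 on the log2 scale (SE 0.043, adjusted p = 0.0036), from a mean of 115 ± 2.14 to 128 ± 8.98 CPM (SD, n = 2), which is 112% of the control. Without siALKBH5 1 the log2 fold change was 0.087 with an adjusted p of 0.21, and DESeq2 gave 0.16 with an adjusted p of 0.051, so the call was lost in both. An antisense gene, SEMA3F-AS1, shares 110 exon bases with it and had 2 and 9 counts in siControl against 10 and 7 in siALKBH5, and whether the counting used strand was not given in the sources used here.

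SEMA3A (ENSG00000075213, chr7:83955777-84492724, minus strand), the founding repulsive ligand of the class, which binds mainly NRP1, had 33.5 and 32.4 CPM in siControl and 31.3 and 34.5 CPM in siALKBH5. The siALKBH5 libraries lay on either side of the siControl libraries. Its log2 fold change of -0.0037 had a 95% interval from -0.16 to 0.15 (adjusted p = 0.98). SEMA3C (ENSG00000075223, chr7:80742538-80922359, minus strand), a ligand that can bind either neuropilin, had 40.9 and 45.2 CPM in siControl and 42.4 and 41.7 CPM in siALKBH5. Here the siALKBH5 libraries lay between the siControl libraries. The log2 fold change of SEMA3C was -0.036, with a 95% interval from -0.17 to 0.10 (adjusted p = 0.72).

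The neuropilins are the shared co-receptors for class 3 semaphorins and for vascular endothelial growth factors. NRP1 (ENSG00000099250, chr10:33177492-33336262, minus strand) was a low transcript, with 76 and 81 counts in siControl against 129 and 123 in siALKBH5, or 4.71 and 4.50 against 6.90 and 7.46 CPM. Both siALKBH5 libraries lay well apart from both siControl libraries, and each 1-to-1 comparison between the groups gave a log2 ratio from 0.55 to 0.73. NRP1 rose by 0.64 on the log2 scale (SE 0.17, 95% interval 0.30 to 0.98, adjusted p = 0.0028), from a mean of 4.60 ± 0.152 to 7.18 ± 0.401 CPM (SD, n = 2), or 156% of the control. DESeq2 gave the same size, 0.64, with an adjusted p of 0.060, which did not pass. No call of NRP1 was lost by leaving out any 1 of the 4 libraries, where the log2 fold change ran from 0.59 to 0.70. The antisense gene AL121748.2, which shares 561 exon bases with NRP1, was listed at 0 in all 4 libraries.

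NRP2 (ENSG00000118257, chr2:205681990-205798133, plus strand) had 536 and 630 counts in siControl against 774 and 735 in siALKBH5. These came to 33.2 and 35.0 CPM in siControl and 41.4 and 44.6 CPM in siALKBH5, again with no overlap between the groups. NRP2 rose by 0.33 on the log2 scale (SE 0.070, 95% interval 0.19 to 0.47, adjusted p = 0.00029), to 126% of the control. The call held with DESeq2, at an adjusted p of 0.0094, and without each library in turn, with log2 fold changes from 0.28 to 0.39. AC007362.1, an antisense gene that shares 147 exon bases with NRP2, had 1 count in each siControl library and 0 and 6 counts in siALKBH5.

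The A-type plexins are the usual signalling partners of the neuropilins. PLXNA2 (ENSG00000076356, chr1:208022242-208244320, minus strand) had 3214 and 3581 counts in siControl against 4129 and 3638 in siALKBH5. At 199 CPM in each siControl library and 221 CPM in each siALKBH5 library, the replicates of either group were nearly equal. PLXNA2 rose by 0.15 on the log2 scale (SE 0.031, adjusted p = 0.00027), to 111% of the control, and the call held with DESeq2 (adjusted p = 0.0060) and without each library. PLXNA1 (ENSG00000114554, chr3:126988594-127037392, plus strand), its paralogue, had 236 and 253 CPM in siControl and 236 and 241 CPM in siALKBH5. The groups overlapped, and the log2 fold change of PLXNA1 was -0.040 with a 95% interval from -0.11 to 0.026 (adjusted p = 0.36).

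The B-type plexins, receptors for class 4 semaphorins, were called in opposite directions. PLXNB1 (ENSG00000164050, chr3:48403854-48430051, minus strand), the receptor for SEMA4D, had 1698 and 1882 counts in siControl against 1693 and 1423 in siALKBH5. Scaled to library size, these were 105 and 104 CPM in siControl and 90.5 and 86.3 CPM in siALKBH5, with both siALKBH5 libraries below both siControl libraries. PLXNB1 fell by 0.24 on the log2 scale (SE 0.044, 95% interval -0.33 to -0.16, adjusted p = 3.2e-05), to 84.4% of the control. It kept its call with DESeq2 (adjusted p = 0.0024) and without each library, with log2 fold changes from -0.28 to -0.21. PLXNB2 (ENSG00000196576, chr22:50274979-50307627, minus strand), the most abundant of the 10, had 6602 and 7492 counts in siControl against 8215 and 7198 in siALKBH5, or 409 and 416 against 439 and 437 CPM. Its groups did not overlap, but the difference was small. PLXNB2 rose by 0.086 on the log2 scale (SE 0.025, adjusted p = 0.0061), to 106% of the control, and without siControl 1 the value was 0.078 with an adjusted p of 0.053, which did not pass.

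PLXND1 (ENSG00000004399, chr3:129555175-129606818, minus strand), a plexin known best from blood vessels, was close to the limit of detection. It had 1 and 9 counts in siControl against 12 and 11 in siALKBH5, or 0.062 and 0.50 against 0.64 and 0.67 CPM, and it passed the filter only through the siALKBH5 libraries. Although the groups did not overlap, the fitted log2 fold change of 1.15 had a 95% interval from -0.19 to 2.48 (adjusted p = 0.18), and DESeq2 gave no adjusted p. The value rested on siControl 1 with its 1 count, and without that library the log2 fold change was 0.39 (adjusted p = 0.77), while without siControl 2 it was 3.25 (adjusted p = 0.061). A difference in PLXND1 was thus not detected with these counts.

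To compare genes with each other, counts were also divided by gene length and by TMM-scaled library size, which gives FPKM values. Per length, PLXNB2 was highest at 58.6 ± 2.07 FPKM (SD over the 4 libraries of both groups), followed by SEMA3F at 25.2 ± 1.94, PLXNA1 at 22.1 ± 0.734 and PLXNA2 at 15.2 ± 0.914 FPKM. PLXNB1 lay at 9.93 ± 0.989, SEMA3C at 6.79 ± 0.299 and SEMA3A at 3.52 ± 0.148 FPKM. With the listed gene lengths the neuropilins were lower than every ligand, with NRP2 at 2.77 ± 0.385 and NRP1 at 0.511 ± 0.131 FPKM. PLXND1 was lowest at 0.048 ± 0.029 FPKM. For each of the 9 pairs of neighbours in this order, the ranges over the 4 libraries did not overlap. The closest pairs were SEMA3F with PLXNA1 and SEMA3A with NRP2. The lowest SEMA3F library had 23.5 FPKM and the highest PLXNA1 library 23.1 FPKM. For SEMA3A the lowest was 3.34 FPKM, and for NRP2 the highest was 3.21 FPKM. The listed length of NRP2 was 13896 bases, against 6662 in its transcript with the longest coding sequence. For SEMA3A these lengths were 9371 and 8225 bases. The order thus depends on the lengths used, and other lengths were not tried.

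**Figure D2:**
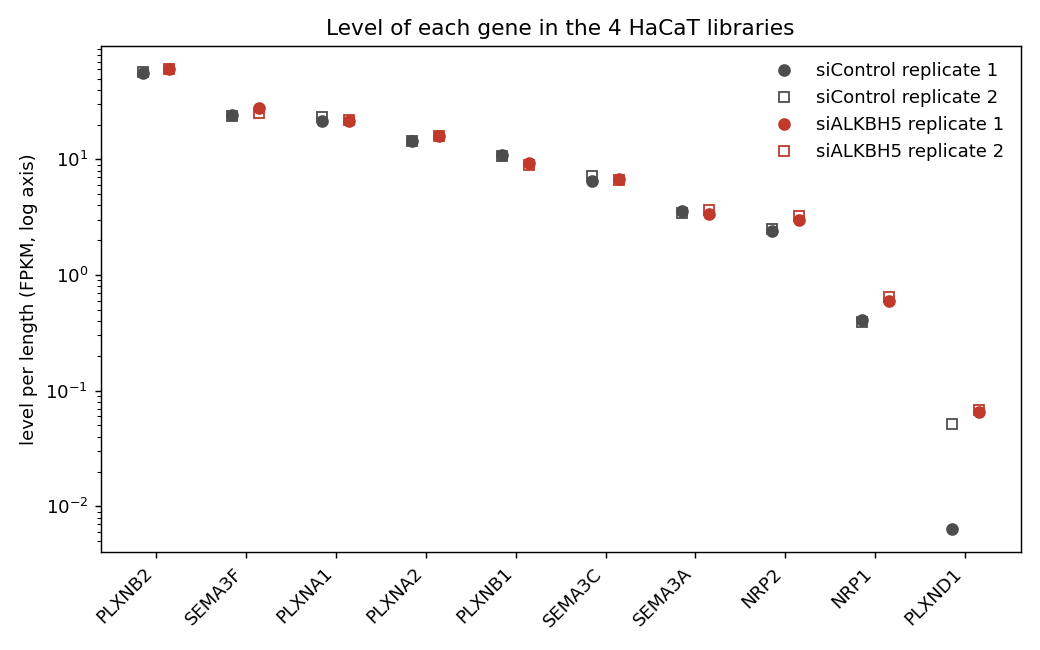
The level per length (FPKM, log axis) of each of the 10 genes in the 4 HaCaT libraries, with genes ordered by their mean, siControl in grey and siALKBH5 in red, filled circles for replicate 1 and open squares for replicate 2. The levels ran from 58.6 FPKM for PLXNB2 to 0.048 FPKM for PLXND1, and for NRP1 and NRP2 both siALKBH5 points lay above both siControl points.

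Summed per role, the 3 semaphorins gave 34.3 and 34.2 FPKM in siControl and 38.0 and 35.6 FPKM in siALKBH5. The neuropilins gave 2.80 and 2.91 FPKM in siControl and 3.58 and 3.86 FPKM in siALKBH5. The plexins gave 103 and 106 FPKM in siControl and 107 FPKM in each siALKBH5 library. In each of the 3 roles both siALKBH5 sums lay above both siControl sums, by the widest relative margin in the neuropilins. Single genes stood apart in 66.3% of all tested genes, and how often sums of genes do so was not computed. A higher sum does not mean that each member rose. SEMA3A, SEMA3C and PLXNA1 were not called, and PLXNB1 was lower. SEMA3F made up 68.8% to 73.4% of the semaphorin sum, NRP2 83.2% to 86.6% of the neuropilin sum and PLXNB2 54.2% to 56.3% of the plexin sum over the 4 libraries. PLXNB1 had 10.5% and 10.2% of the plexin sum in siControl and 8.65% and 8.28% in siALKBH5.

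Ratios of 2 genes within a library do not depend on how libraries are scaled. The log2 ratio of NRP1 to NRP2 was -2.55 and -2.69 in siControl and -2.31 in both siALKBH5 libraries. The mean ratio was thus higher by 0.31 after knockdown, against SDs of 0.0998 in siControl and 0.0042 in siALKBH5. NRP1 had only 76 to 129 counts in a library, so the near equality of the siALKBH5 values does not show how precise this ratio is. For PLXNB1 to PLXNB2 the log2 ratio was -2.38 and -2.42 in siControl and -2.70 and -2.76 in siALKBH5, a mean difference of -0.33, against SDs of 0.024 and 0.042 between replicates. PLXNA1 to PLXNA2 went from a mean of 0.63 to 0.44, and SEMA3C to SEMA3F from -1.80 to -1.99, without overlap of the groups in either. In contrast, SEMA3A to SEMA3C overlapped between the groups, with means of -0.96 and -0.94. As with single genes, the 2 against 2 design gives no exact p under 0.333 for a ratio. How often other pairs of genes stand apart was not computed, and single genes did so in 66.3% of all tested genes.

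**Figure D3:**
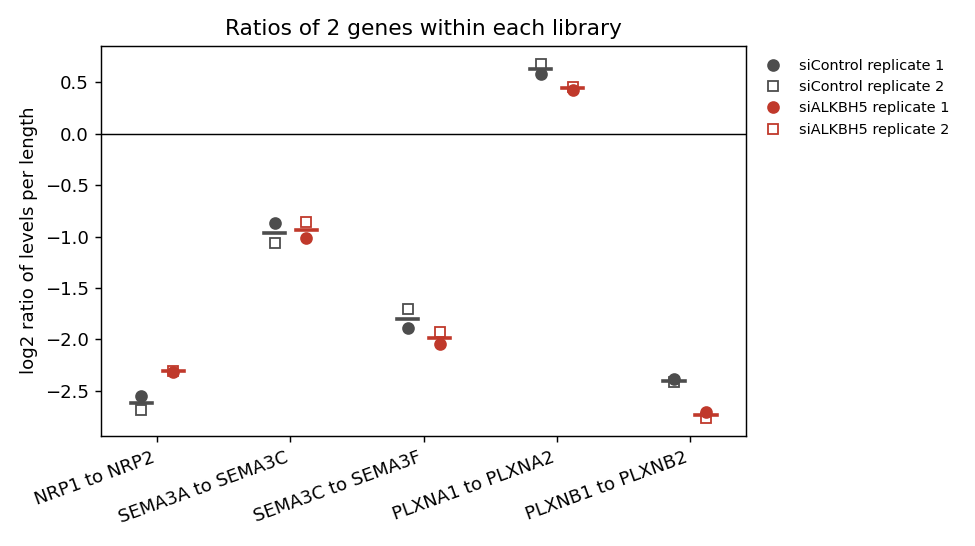
The log2 ratio of the levels per length of 2 genes in the same library (vertical axis) for 5 pairs, with siControl in grey and siALKBH5 in red, circles for replicate 1, squares for replicate 2 and a bar at each group mean. The groups stood apart in 4 of the 5 pairs, and SEMA3A to SEMA3C was the pair in which they overlapped. Single genes stood apart in 66.3% of all tested genes, and the share among other gene pairs was not computed.

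The rest of the ligand and receptor families was described with the same test. Of 17 other semaphorins 14 were tested, and 4 were higher, 3 lower and 7 not called, with a median log2 fold change of 0.058, beside 19.3% higher and 17.3% lower over all tested genes. SEMA5B, a transmembrane semaphorin with thrombospondin repeats, had 16 and 14 counts in siControl against 44 and 37 in siALKBH5, a log2 fold change of 1.38 (adjusted p = 0.0023). SEMA4D, the ligand of PLXNB1, rose from 78 and 108 to 168 and 147 counts, a log2 fold change of 0.72 (adjusted p = 0.00043), while PLXNB1 itself fell. SEMA6D, a transmembrane ligand of PLXNA1, had 1033 and 1124 counts in siControl against 731 and 597 in siALKBH5, and fell by 0.74 on the log2 scale (adjusted p = 7.2e-12). SEMA3D had a log2 fold change of 0.36 and an adjusted p of 0.042, a call that was lost with DESeq2, with library size only, with no filter, and without siControl 1, siControl 2 or siALKBH5 2. SEMA3G was listed at 0 in all 4 libraries.

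Of the 4 other plexins 3 were tested. PLXNA3, a further partner of the neuropilins, fell by 0.21 on the log2 scale (adjusted p = 0.0069), a call that was lost with DESeq2 and without siControl 1. PLXNA4 had 5 counts in each siControl library and 11 and 20 in siALKBH5, a log2 fold change of 1.57 (adjusted p = 0.034) that did not pass without siALKBH5 2, at 0.99 with an adjusted p of 0.47, nor without either siControl library, and DESeq2 gave no adjusted p. PLXNC1, the receptor of SEMA7A, had 10 and 13 counts in siControl against 0 and 10 in siALKBH5, and was not called. Like PLXND1, PLXNA4 passed the filter on low counts only through the siALKBH5 libraries, where it is high.

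Among 43 partner genes of the pathway 37 were tested, of which 14 were higher and 8 lower, with a median log2 fold change of 0.11. The shares over all tested genes were 19.3% higher and 17.3% lower, and the lower partners were near theirs. Of the co-receptors, MET, the receptor of hepatocyte growth factor that associates with PLXNB1, had a log2 fold change of 0.22 (adjusted p = 0.026), and ERBB2, which also associates with B-type plexins, fell by 0.12 on the log2 scale (adjusted p = 0.0025). The call of MET was lost with DESeq2 and without siControl 2 or siALKBH5 1, and that of ERBB2 without siControl 1. KDR, the main endothelial receptor that works with NRP1, was listed at 0 in all 4 libraries, as was NRCAM. Of the growth factors that bind neuropilins, VEGFA had 35.9 and 39.0 CPM in siControl and 44.4 and 43.4 CPM in siALKBH5, a log2 fold change of 0.23 (adjusted p = 0.0077). VEGFB fell by 0.14 on the log2 scale (adjusted p = 0.022). Both calls were lost with DESeq2 and without siControl 1, and that of VEGFB also with no filter and without siControl 2 or siALKBH5 2.

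Class 3 semaphorins are cut by furin-type convertases, which changes their activity. All 4 convertases were tested, and 2 were higher, beside 19.3% of all tested genes. FURIN had 2097 and 2330 counts in siControl against 2840 and 2507 in siALKBH5, a log2 fold change of 0.23 (adjusted p = 6.3e-06), and PCSK7 had a log2 fold change of 0.31 (adjusted p = 0.0048), a call lost with DESeq2 and without siALKBH5 1. Of 30 genes that act downstream of plexins 28 were tested, and 10 were higher, 6 lower and 12 not called, again beside 19.3% and 17.3% of all tested genes. The largest changes that passed were in PAK1, a kinase activated by Rac, which rose from 267 and 289 to 484 and 416 counts (log2 fold change 0.65, adjusted p = 7.4e-07), and DPYSL2, the collapsin response mediator CRMP2 (0.53, adjusted p = 2.6e-06). LIMK1, which phosphorylates cofilin, had a log2 fold change of 0.46 (adjusted p = 2.1e-06), and MICAL2, an actin oxidase, had 0.45 (adjusted p = 7.1e-07). None of the 37 tested partners was called at 2-fold, beside 244 higher and 196 lower of all 15075 tested genes. At so small a share, none among 37 says little about the partners.

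**Figure D4:**
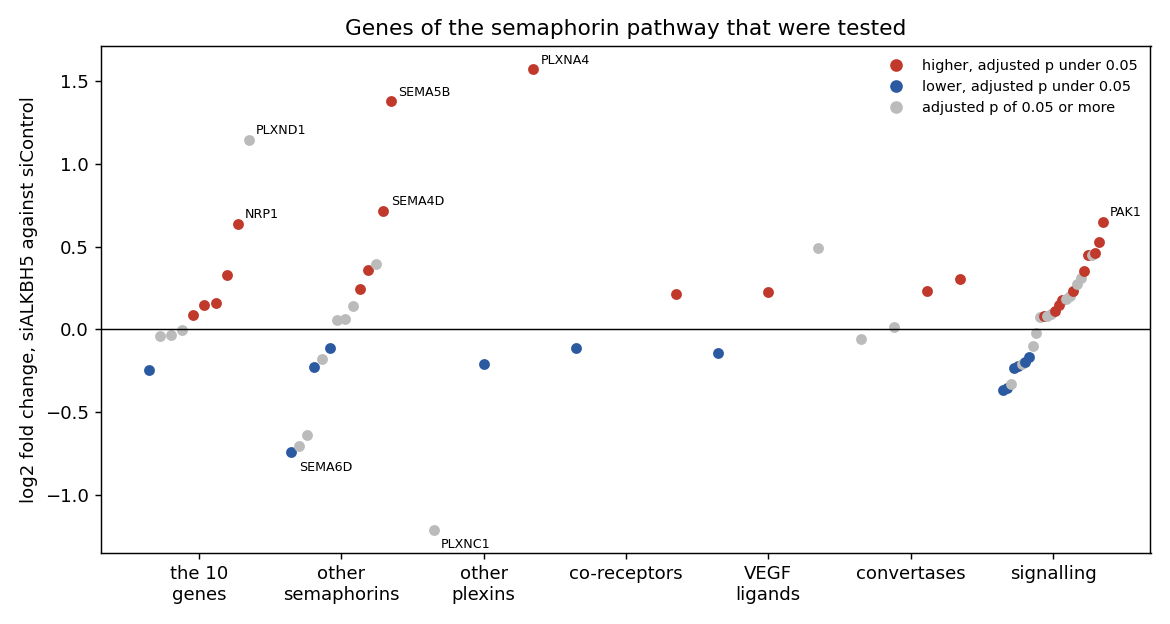
The log2 fold change of siALKBH5 against siControl (vertical axis) of every tested gene of the pathway, 1 point a gene, sorted within each of 7 lists (horizontal axis) and coloured by whether the adjusted p of edgeR's quasi-likelihood test was under 0.05. Each list except the convertases held called genes on both sides of 0, with SEMA5B and PLXNA4 (which passed the low-count filter only through siALKBH5) the highest called points and SEMA6D the lowest.

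Neuropilins and plexins are also made by cell types other than keratinocytes, so the markers of 4 such types were read in the same libraries. Of 19 markers 7 were tested, 2 higher and 3 lower, beside 19.3% higher and 17.3% lower over all tested genes. The endothelial list (PECAM1, CDH5, TEK and VWF) summed to 32.5 CPM in siControl and 34.9 to 35.4 CPM in siALKBH5, with VWF higher (log2 fold change 0.51) and CDH5 lower (-0.69), while PECAM1, a defining marker, had 1 count in 1 siALKBH5 library and 0 in the others. The fibroblast list of 7 summed to 21.9 to 22.8 CPM in siControl and 18.7 to 19.1 CPM in siALKBH5, with DCN (-1.25) and LUM (-1.08) lower and COL1A2, PDGFRA and PDGFRB at 0 throughout. The melanocyte list of 4 summed to 2.72 to 3.22 CPM in siControl and 3.15 to 3.88 CPM in siALKBH5, with TYR at 0. The immune list of 4 summed to 2.42 to 3.11 CPM in siControl and 3.82 to 4.22 CPM in siALKBH5, with CD14 higher (0.64) and PTPRC at 0 to 2 counts. The call of CD14 was lost with DESeq2 (adjusted p = 0.20) and without siControl 1, siALKBH5 1 or siALKBH5 2, and that of LUM without the same libraries, with no adjusted p from DESeq2. The libraries were made from 1 keratinocyte line, so counts of these markers need not come from other cell types. Where they came from was not tested.

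Because ALKBH5 acts on m6A, the letters GGACT, a common form of the m6A sequence motif, were counted in 1 transcript per gene, that with the longest coding sequence. No methylation was measured in these libraries. All 10 genes held the motif, as did 91.4% of the tested coding genes, with 2 copies in SEMA3A and 18 in PLXNA2. Per kilobase of transcript this was 0.243 in SEMA3A, 1.19 in NRP1, 0.98 in PLXNB1 and 1.57 in PLXNA2, and the median of all tested coding genes was 0.945 (quartiles 0.569 and 1.42). The remaining genes had 1.5442 (PLXNA1), 1.5011 (NRP2), 1.4096 (PLXND1), 1.1596 (SEMA3C), 0.94 (PLXNB2) and 0.7891 (SEMA3F) copies per kilobase. Whether the motif density goes with the calls was not tested.

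Promoters from RefSeq (GRCh38.p14, 250 bases before to 50 after a start) matched 8 of the 10 genes with 12 entries, and there was none for NRP1 or SEMA3A. The GC box, GGGCGG on either strand, was in 10 of the 12 entries and in 45% of all 35116 promoters of that length. The entries with it had a GC content of 62.3% to 87.3%, and those without it 36.0% and 53.0%. The median of all promoters was 58.7%. The first and second SEMA3F entries overlap each other. The letters CCAAT were in 3 of 12 entries and in 34.6% of all promoters. The E-box CACGTG, the AP-1 form TGANTCA and TATAAA were in 0 of 12 entries and in 7.26%, 7.71% and 11.5% of all promoters. The 250 bases before the start of PLXNA2 and PLXNB1 are shown, because these plexins were called in opposite directions and the windows lie outside annotated exons of the genes. Both are written 5′ to 3′ on the gene's strand, with GGGCGG on either strand in capitals. The first is chr1:208244385-208244634 and the second chr3:48430087-48430336, both on the minus strand.
PLXNA2 promoter: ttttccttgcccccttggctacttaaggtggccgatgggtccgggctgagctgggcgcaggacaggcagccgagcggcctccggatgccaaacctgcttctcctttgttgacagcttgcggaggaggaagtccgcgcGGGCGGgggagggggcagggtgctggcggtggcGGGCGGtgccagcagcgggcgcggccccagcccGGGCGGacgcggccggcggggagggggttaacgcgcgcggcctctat
PLXNB1 promoter: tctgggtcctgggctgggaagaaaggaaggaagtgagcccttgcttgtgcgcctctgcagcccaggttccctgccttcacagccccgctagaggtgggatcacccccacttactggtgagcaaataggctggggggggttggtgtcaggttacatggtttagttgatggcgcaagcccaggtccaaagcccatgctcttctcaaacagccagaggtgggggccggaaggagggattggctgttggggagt
The PLXNA2 window held 3 GC boxes at a GC content of 72.4%, and the PLXNB1 window held none at 59.6%. Among all promoters 42.6% held a GC box in the same 250 bases. Over the full 300 bases of the same entries PLXNB1 had 2 GC boxes and PLXNA2 had 3, so the 0 against 3 holds for the 250-base windows and not for the whole entries. PLXNB2 and 1 SEMA3F entry, also of genes called higher and outside annotated exons, are not shown. They had 1 and 0 GC boxes in their 300 bases. A second PLXNB1 start in the table had 5 in its 300 bases, and the start in use in these cells was not measured.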

How the data were processed

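Poly-A RNA of 4 HaCaT libraries was measured. The authors deposited 2 tables with whole-number counts per gene, which were used as deposited, with a gene length for each gene. Deposited FPKM values were scaled by the authors within each table and were not used, and neither were the columns of the authors' own comparisons (log2 fold changes and p-values). The submitters' processing notes name CASAVA, HISAT2 2.0.5, featureCounts 1.5.0-p3 and DESeq2 1.20.0 and the build hg38, without their roles. All 58735 genes matched GENCODE release 29 in identifier, position and strand.

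Counts were joined by gene identifier, filtered with filterByExpr, scaled by TMM (factors 0.992 to 1.008) and tested in R 4.3.3 with edgeR 4.0.16 (glmQLFit, glmQLFTest), with siALKBH5 against siControl, no covariates and Benjamini-Hochberg adjustment over all 15075 tested genes. edgeR put the common biological coefficient of variation at 0.025. Replicates differed by more than counting noise (chi-square per degree of freedom 1.73 and 1.85), so none was counted as a repeat of another. FPKM was recomputed from counts, listed length and TMM-scaled totals. The fitted log2 fold changes were checked on counts simulated with the same biological coefficient of variation for every gene. That check does not cover the p-values of this design. Alternatives were DESeq2 1.42.0, scaling by its size factors or by library totals alone, a filter at a mean count of 10 or none, a replicate block and leaving out each library. The genes named were the 10, ALKBH5, KRT5, KRT14 and, in each other list, all called genes or the 4 with the largest change. PLXNC1, the 4 lower keratinocyte markers and genes listed at 0 were named after their values were seen. The 10 genes, the lists and the tests were chosen with earlier results of these data known.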

Additional observations from a re-analysis of the deposited data

How the results depend on the processing

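The 1 lower gene of the 10 was PLXNB1 under every alternative run, and none of the 10 was called at 2-fold under any. The count of higher genes was 5 with other scalings, with a filter at a mean count of 10 or none, and with the replicate block, 4 to 5 when 1 library was left out, and 3 with DESeq2 (NRP2, PLXNA2 and PLXNB2). With DESeq2 the counts over all genes were 1827 higher and 1229 lower, against 2913 and 2610 with edgeR, those of the other semaphorins and plexins 3 and 1 against 5 and 4, and those of the partners 7 and 5 against 14 and 8. Leaving out 1 library gave 3 to 5 higher and 1 to 4 lower other semaphorins and plexins, and 10 to 13 higher and 4 to 7 lower partners. Without siControl 1 these lower counts were 1 and 4, and the higher count of the other semaphorins and plexins was 3 without siControl 1, siControl 2 or siALKBH5 2. The cause was not tested, except that those fits use fewer libraries.

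The signs of 3 genes that were not called turned. SEMA3A had a log2 fold change of 0.00018 with DESeq2 and 0.0030 with no filter, and from -0.070 to 0.069 when 1 library was left out, above 0 without siControl 1 (0.023) or siALKBH5 1. SEMA3C ran from -0.10 to 0.040 and PLXNA1 from -0.085 to 0.011 in the same fits, both above 0 without siControl 2. The order of levels kept its 9 separated neighbours with TPM or library size only. Both use the same gene lengths and rescale each library as a whole, so the order within a library could not change. They do not test the effect of the lengths.

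The numbers 1 and 2 are shared across the groups, but the labels do not say that they mark a shared day or culture, and deviations of same-numbered libraries correlated at 0.042. With the replicate block, 5 of the 10 genes were higher and 1 lower, no call among the 10 changed, and all genes gave 3091 higher and 2831 lower. NRP1 and above all PLXND1 were the 2 genes with the fewest counts, and the part of depth in their results was not tested.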
